A study of Mus musculus with 120 samples.

Results

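The last weeks before diabetes became apparent were examined here by comparing implanted scaffolds taken 1 week before onset with those taken 3 weeks before onset from the same mice. The members were chosen by label alone. They comprised every library labelled as a progressor at 1 week before onset (n = 10) or at 3 weeks before onset (n = 10), 20 of the 120 libraries in the series. All 10 mice were NOD/ShiLtJ, a strain in which T cells and macrophages destroy the pancreatic beta cells, and all became hyperglycemic. All were female, and each carried several porous polycaprolactone scaffolds under the skin of the back, termed immunological niches (INs), and all received carprofen, an analgesic, and inhaled isoflurane at each surgery. No experimental treatment or transgene is named for them. One IN was removed and replaced each week in rotation around the quadrants of the back. The INs of a mouse at these times are therefore separate implants from different sites, and site and time cannot be told apart within a mouse. Mice 1 to 5 formed batch 1 and mice 6 to 10 formed batch 2, which were sequenced on different instruments. The pair of libraries from 1 mouse was always in 1 batch. Age in weeks differs between mice at a given time before onset and is not given in the labels of these libraries. Set beside the 20 libraries were those of the same mice 5 weeks before onset and at onset. Also used were batch 1 libraries of mice that stayed normoglycemic, at 14 and 18 weeks of age. These came from NOD nonprogressors and from mice of the NOR strain.

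An IN is a foreign body. Macrophages enter it, some fuse into multinucleated giant cells, fibroblasts lay down collagen around it, and vessels and circulating lymphocytes reach it, so its RNA mixes host cells of many kinds. Beta cells are not part of it. *Ins1* had no read in any of the 20 libraries, *Ins2* had 1 read in all, and *Gcg*, the glucagon gene, had 10. The markers of macrophages were abundant, with a summed level over 14 genes of 4486 to 11300 CPM (read counts scaled to a common library total with the trimmed mean of M values, TMM). Neutrophil granule genes were scarce. *Camp*, *Elane*, *Mpo* and *Ngp* were too low to be tested, as was *Ly6g*, a surface marker. *Csf3r*, another member of the neutrophil list, was not scarce, at 18.4 to 49.7 CPM at 3 weeks and 14.2 to 27.3 CPM at 1 week. *Ltf* and *Mmp8* of the same list were tested and went opposite ways. *Ltf* had medians of 1.72 CPM at 3 weeks and 5.22 CPM at 1 week (log2 change 1.2 ± 0.6, higher in 7 mice). *Mmp8* had medians of 1.62 and 1.09 CPM (-0.58 ± 0.26, lower in 7 mice). Each had an adjusted p of 0.718 in edgeR. In RNA of a whole implant, fewer cells of a type and less RNA per cell cannot be told apart.

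Library totals ran from 22589371 to 44771114 counts. Among the 2000 most variable genes, batch took 32.4% of the sum of squares, mice within a batch 31.7%, time 3.8% and the rest 32.1%. The terms differ in their degrees of freedom, with a single one for time and several for mice. The shares therefore do not show that mice differed by more than the rest, or time by less. Ribosomal and 7SL RNA took 0.399% to 22.9% of the counts, with the highest share in mouse 4 at 3 weeks. Most of it was 7SL RNA (0.355% to 20.9%), and the rRNA gene CT010467.1 took 2.05% at most. The library of mouse 2 at 3 weeks stood apart through genes of the hair follicle, described below. Counts differed between every pair of libraries of a group by far more than sampling noise, so no library was a copy of another.

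No gene passed the threshold between 3 and 1 weeks before onset. Of 19009 genes tested with edgeR's quasi-likelihood test with mouse as a block, 0 had a Benjamini-Hochberg adjusted p under 0.05 (0% called), and the smallest adjusted p was 0.672, for *Evl*. At an unadjusted p under 0.05, 448 genes were higher at 1 week (2.36%) and 848 were lower (4.46%). With library totals in place of TMM this split turned, to 785 higher and 376 lower. It also turned in batch 1 alone (1102 higher, 818 lower), in batch 2 alone (262 and 177) and in the fit of 40 libraries (555 and 478), so the excess of lower genes depends on the scaling and on the libraries fitted. limma-voom called 0 genes, with 1063 at an unadjusted p under 0.05. DESeq2 called 2, *Evl* at an adjusted p of 9e-05 and the unnamed transcript Gm43508 at 0.0463, chosen for naming after their values were seen. The level of 166 genes (0.873%) was higher at 1 week in at least 9 of the 10 mice, and that of 273 genes (1.44%) was lower in at least 9. Of all 19009 genes, 11828 (62.2%) had a 95% interval of the log2 change that lay within 0.5 of 0 on both sides. Among 9444 genes with a mean of at least 10 CPM, 8302 (87.9%) did. Over the 19009 genes, the correlation of the change between mice ran from -0.551 to 0.582 with a median of 0.00605 over 45 pairs, a description across genes only.

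The genes with the smallest p among those lower at 1 week differed by small amounts. Of the 12 named by the rule, 9 were lower in at least 9 mice and 5 were lower in all 10, against 1.44% of all genes for the first count, and all 12 were lower in both batches. As they were picked by p, these counts describe them and support nothing further. *Evl* encodes an Ena/VASP protein that drives actin filament growth, and lies on chromosome 12 at 108554720 to 108688516 of GRCm38. It measured 85.5 CPM in the lowest, 91.5 in the median and 109.8 in the highest library at 3 weeks, and 64.8, 74.5 and 96.1 CPM at 1 week. It was lower at 1 week in every mouse, although the 2 groups overlapped. The log2 change was -0.30 ± 0.05 (SE, n = 10 pairs), a fold of 0.81. Its adjusted p in edgeR was 0.672, and over the 22 alternatives of the processing it ran from 9e-05 in DESeq2 to 1 within batch 2.

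*Nr1h3* encodes LXR alpha, the oxysterol receptor that switches on cholesterol export in macrophages, and lies on chromosome 2 at 91184061 to 91202834. Its level ran from 18.8 to 38.2 CPM with a median of 24.7 at 3 weeks, and from 14.6 to 26.6 CPM with a median of 21.2 at 1 week. It was lower in all 10 mice, with a log2 change of -0.34 ± 0.07, and by similar amounts in batch 1 (-0.34) and batch 2 (-0.30). *Pparg*, another lipid-sensing nuclear receptor of macrophages and adipocytes, had a log2 change of -0.36 ± 0.10 and was lower in 9 mice, from a median of 34.9 CPM to one of 25.0. *Mertk*, the receptor with which macrophages bind apoptotic cells, measured 93.3 to 191.4 CPM (median 123.6) at 3 weeks and 73.6 to 137.9 CPM (median 96.5) at 1 week. It was lower in 9 mice, the exception being in batch 1, with a log2 change of -0.36 ± 0.08. *Rgs10*, which curbs G-protein signals in macrophages, was lower in 9 as well (-0.40 ± 0.10). The adjusted p in edgeR of each of these was 0.718.

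Among the other named genes on this side, *Pla2g2e*, a secreted phospholipase A2, was lower in all 10 mice (-0.54 ± 0.11, 3-week median 1.68 CPM). *Pitpnm1*, a phosphatidylinositol transfer protein, was lower in all 10 (-0.24 ± 0.05), as was *Nuak2*, an AMPK-related kinase (-0.21 ± 0.05). *AB124611* was lower in 9 (-0.40 ± 0.09). *Bin2*, a membrane-shaping protein of leukocytes (-0.27 ± 0.07), *Tmem14c*, a carrier needed for heme synthesis in mitochondria (-0.37 ± 0.09), and *S100a1*, a calcium-binding protein (-0.72 ± 0.18), were each lower in 8. Every adjusted p here was 0.718 in edgeR. The plot of levels by mouse shows these slopes for 6 of the lower genes and for 2 higher ones.

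**Figure D1:**
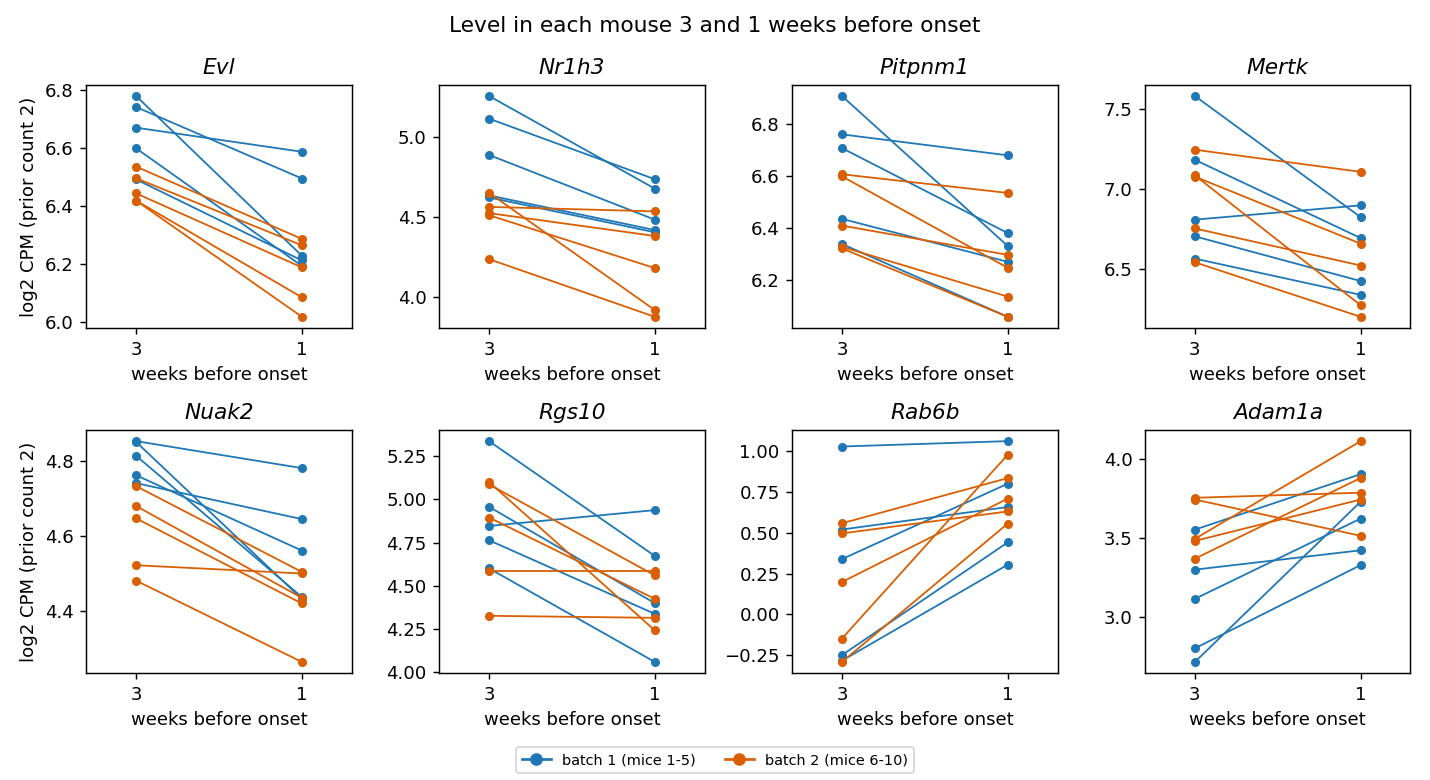
Level of 8 genes in each of the 10 mice, as log2 CPM (vertical axis) 3 and 1 weeks before onset (horizontal axis), with a line joining the 2 libraries of a mouse, blue for batch 1 and orange for batch 2. *Evl*, *Nr1h3*, *Pitpnm1* and *Nuak2* slope down in all 10 mice, *Mertk* and *Rgs10* in 9, *Rab6b* slopes up in 10 and *Adam1a* in 9, while the levels at the 2 times overlap.

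The 12 named genes that were higher at 1 week were led by *Greb1*, a target of the estrogen receptor that also binds it. It lies on chromosome 12 at 16670615 to 16800886. At 3 weeks it measured 0.516 CPM in the lowest, 1.81 in the median and 40.5 in the highest library, and at 1 week 1.19, 8.18 and 14.6 CPM. The highest library at 3 weeks was that of mouse 8, and mouse 8 was the only one in which it was lower at 1 week. The log2 change was 1.90 ± 0.51, a fold of 3.72, with an adjusted p of 0.718 in edgeR. Without mouse 8 it was 2.26, with an adjusted p of 0.0759, in a range of 0.0701 to 1 over the 22 alternatives. Without the mouse block it was 0.83 and in limma-voom 1.06. *Ptpn5*, the phosphatase STEP, followed the same mice: 0.597 to 30.7 CPM (median 1.40) at 3 weeks and 0.683 to 12.7 CPM (median 7.81) at 1 week, higher in 9 mice, with a log2 change of 1.96 ± 0.55. Its highest library at 3 weeks was again that of mouse 8.

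*Pgr*, *Akr1c14* and *Esr1* were read beside them, chosen after these values were seen. *Pgr*, the progesterone receptor and a classic estrogen target, had medians of 6.35 CPM at 3 weeks and 18.0 CPM at 1 week and was higher in 8 mice (1.60 ± 0.72). The change was 3.55 in batch 1, where all 5 mice were higher, and 0.15 in batch 2. *Akr1c14*, a 3-alpha-hydroxysteroid dehydrogenase, was higher in 8 mice (1.23 ± 0.50, medians of 4.58 and 12.7 CPM), with a change of 2.50 in batch 1 and of -0.13 in batch 2. *Esr1*, the estrogen receptor alpha itself, differed less (0.34 ± 0.20, higher in 6), and it too turned in batch 2 (-0.09). *Ngfr*, the low-affinity nerve growth factor receptor and a member of the Schwann cell list, was higher in 9 mice (1.38 ± 0.53) and also had its highest level at 3 weeks in mouse 8, at 41.3 CPM. None of these 4 passed the test in edgeR over all mice.

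At onset the medians of these genes were below those at 1 week. The median of *Greb1* over the 10 mice was 4.11 CPM at 5 weeks, 1.79 at 3 weeks, 8.21 at 1 week and 1.89 at onset, on the scale of the 40 libraries from 5 weeks before onset to onset. *Pgr* ran from 4.37 through 6.29 and 18.0 to 2.69 CPM, and *Ptpn5* from 2.83 through 1.37 and 7.88 to 2.43 CPM. The change from 1 week to onset less the change from 3 weeks to 1 week was tested in those 40 libraries, in which the libraries at 1 week enter both changes. It was -3.75 ± 1.01 on the log2 scale for *Greb1* and -4.71 ± 1.13 for *Pgr*, each with an adjusted p of 0.901 in edgeR. Of 20257 genes, 0 passed (0% called, 787 at an unadjusted p under 0.05), and the smallest adjusted p was 0.0654. Leaving out mouse 8 let *Greb1* pass (-4.40, adjusted p = 0.0322) and leaving out mouse 1 let *Rxfp1*, the relaxin receptor, pass (-5.09, adjusted p = 0.0108), each as the only gene. *Rxfp1* was scarce, with medians of 0.107 CPM at 3 weeks and 0.689 CPM at 1 week and 2.49 CPM at most. It did not pass the filter on low counts in the 20 libraries.

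**Figure D2:**
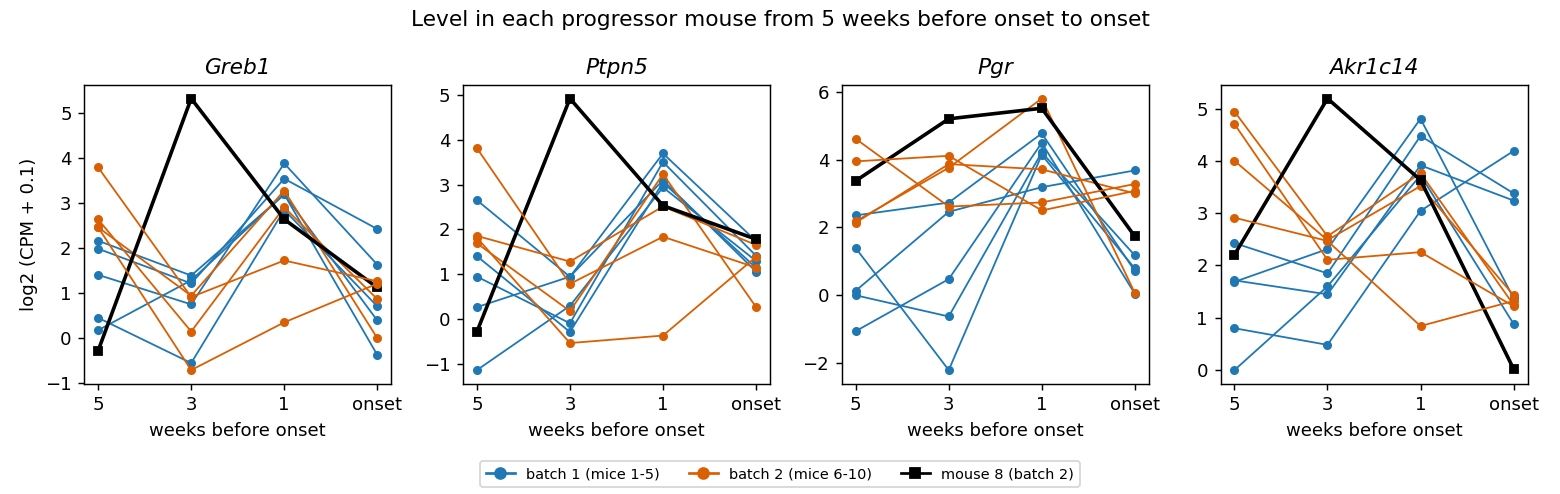
Level of *Greb1*, *Ptpn5*, *Pgr* and *Akr1c14* in each of the 10 progressor mice, as log2 of CPM plus 0.1 (vertical axis) at 5, 3 and 1 weeks before onset and at onset (horizontal axis), with blue lines for batch 1, orange for batch 2 and a thick black line for mouse 8. *Greb1* and *Ptpn5* peak at 1 week in mice 1 to 7, at 3 weeks in mouse 8 and at 5 weeks in mice 9 and 10, while the time of the peak varies more in *Pgr* and *Akr1c14*.

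The other named genes on the higher side differed by less. *Rab6b*, a small GTPase of Golgi traffic, was the only one of the 12 that was higher in all 10 mice (0.50 ± 0.14, medians of 1.15 and 1.55 CPM). *Ctnna3*, an alpha-catenin (0.88 ± 0.25), *Adam1a*, a membrane metalloprotease (0.37 ± 0.11), *Prr33* (0.49 ± 0.15), *Mtmr7*, a phosphoinositide phosphatase (0.49 ± 0.16), and *Zfp866*, a zinc finger gene (0.16 ± 0.05), were each higher in 9. *Col4a4*, a basement membrane collagen (0.59 ± 0.17), *Pcsk5*, a proprotein convertase (0.68 ± 0.23), and *Hoxb5* (0.63 ± 0.18) were each higher in 8. Of the 12, 8 were higher in at least 9 mice, against 0.873% of all genes, with the same reservation on how they were picked. The adjusted p was 0.718 in edgeR for all of them.

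*Hoxb5* belongs to the Hox clusters, whose members mark position along the body axis in fibroblasts of the skin. The whole family was therefore read, after its value had been seen. Of 25 Hox genes tested, 20 were higher at 1 week and 5 lower, with a median log2 change of 0.26, beside -0.01 for all genes. Of the 19 genes of paralog groups 1 to 8, 14 were higher (median 0.26). The genes of the posterior groups 9 and 10 were all higher, by 0.43 (*Hoxd9*) to 1.79 (*Hoxc10*). This division of the family was not set beforehand. In batch 2 alone *Hoxa9*, *Hoxa10*, *Hoxb9* and *Hoxc10* did not pass the filter on low counts. *Hoxa10* and *Hoxc10* had no count in some libraries, so the size of their fitted changes depends on the prior count. The summed level of all 6 genes of groups 9 and 10 was 1.71 to 26.3 CPM (median 4.65) at 3 weeks and 1.87 to 41.0 CPM at 1 week, and was higher in 8 mice. It was lower in mouse 8, with 9.30 CPM at 3 weeks and 2.93 CPM at 1 week, and in mouse 10, with 1.93 and 1.87 CPM. *Hoxb9* was higher in all 10 mice (0.86 ± 0.20), at under 1 CPM in every library. *Hoxc8* was the one Hox gene that was lower at an unadjusted p under 0.05 (-0.28 ± 0.12, lower in 8 mice). The quadrant from which each IN came is not given in the labels, so site on the back and time cannot be told apart here.

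Across the 51 gene lists, 0 members passed the test. The medians of the macrophage and lipid-associated macrophage lists were below 0 in both batches. Of 14 macrophage markers tested, 13 had a fitted log2 change below 0, beside 52.2% of all genes. Their median log2 change was -0.18, beside -0.01 for all genes. At an unadjusted p under 0.05, 4 of the 14 were lower and 0 higher, beside 4.46% and 2.36% of all genes. *Marco*, a scavenger receptor, had a change of -0.96 ± 0.32 and was lower in 9 mice at medians of 0.791 and 0.393 CPM. *Lyz2*, lysozyme M, measured 2652 to 7149 CPM at 3 weeks and 1478 to 5450 CPM at 1 week and was lower in 8 mice (-0.36 ± 0.15). The summed level of the 14 markers was lower in 7 of the 10 mice. Of 12 genes of lipid-associated macrophages, the foamy cells that take up lipid debris, 11 were lower (median -0.20), among them *Cd63* (-0.29 ± 0.11), *Fabp5* (-0.39 ± 0.15) and *Trem2* (-0.20 ± 0.08), a lipid receptor that measured 391.4 to 572.1 CPM at 3 weeks and 324.4 to 538.9 CPM at 1 week and was lower in 8 mice.

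Named genes of giant cells were split, and the median of the giant cell fusion list was -0.13. The fusion receptor *Dcstamp* (-0.31 ± 0.09), the proton pump subunit *Atp6v0d2* (-0.32 ± 0.11, lower in 9 mice) and the acid phosphatase *Acp5* (-0.46 ± 0.17) were lower, each at an unadjusted p under 0.05. The integrin *Itgb3*, chosen after its value was seen, was higher (0.32 ± 0.13, in 7 mice). Of 11 genes of classical macrophage activation, 10 were lower (median -0.36), led by the chemokine *Ccl4* (-0.52 ± 0.21). Of 10 genes of alternative activation, 8 were higher (median 0.43), with *Arg1*, arginase, at 0.71 ± 0.34 in 7 mice. This last median was 0.86 in batch 1 and -0.32 in batch 2. *Cd163*, a hemoglobin scavenger receptor, shows the split, with a change of 2.20 in batch 1 and of -0.41 in batch 2. Of 23 chemokines and receptors, 18 were lower (median -0.23), with *Ccl22* at -0.50 ± 0.20 and *Ccl9* at -0.26 ± 0.09.

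Lists of antigen presentation and lymphocytes varied in how far they lay from 0. The medians of the MHC class I (-0.08), dendritic cell (-0.04), T cell checkpoint (-0.03) and Treg and helper T (-0.02) lists were near it, and the last 3 turned positive with library totals. All 10 MHC class II genes tested had a fitted log2 change below 0 (median -0.26), but their summed level was higher at 1 week in 4 mice. *H2-Eb1* ran from 45.9 to 358.6 CPM at 3 weeks and from 43.0 to 130.1 CPM at 1 week. The MHC class I light chain *B2m* had a change of -0.34 ± 0.13 and *H2-K1* one of -0.20 ± 0.09, each lower in 7 mice. Of 15 T cell genes, 14 were lower (median -0.20). Their summed level was 39.4 to 79.2 CPM (median 54.4) at 3 weeks and 37.9 to 57.7 CPM (median 49.6) at 1 week, lower in 9 mice and higher in mouse 2. *Trac*, the constant region of the T cell receptor alpha chain, measured 0.326 to 1.84 CPM at 3 weeks and 0.303 to 1.10 CPM at 1 week (-0.55 ± 0.22, lower in 8 mice). *Foxp3*, the regulator of regulatory T cells, had a change of -0.24 ± 0.12 and was lower in 8, while of the 8 genes tested of its list, Treg and helper T, 4 were higher and 4 lower. *Cd79b*, a subunit of the B cell receptor, had one of -0.74 ± 0.21 and was lower in 8, but the median of the 10 B cell genes was -0.69 in batch 1 and 0.06 in batch 2. *Ncr1* and *Ccl5*, genes of cytotoxic cells, were at -0.70 ± 0.30 (lower in 7 mice) and -0.56 ± 0.28 (lower in 8). They were the members of lowest p in the cytotoxic effector list, whose median was -0.37. *Ncr1* was scarce, at 0.0362 to 2.97 CPM at 3 weeks, and *Gzmk* and *Klrc1* were too low to be tested.

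**Figure D3:**
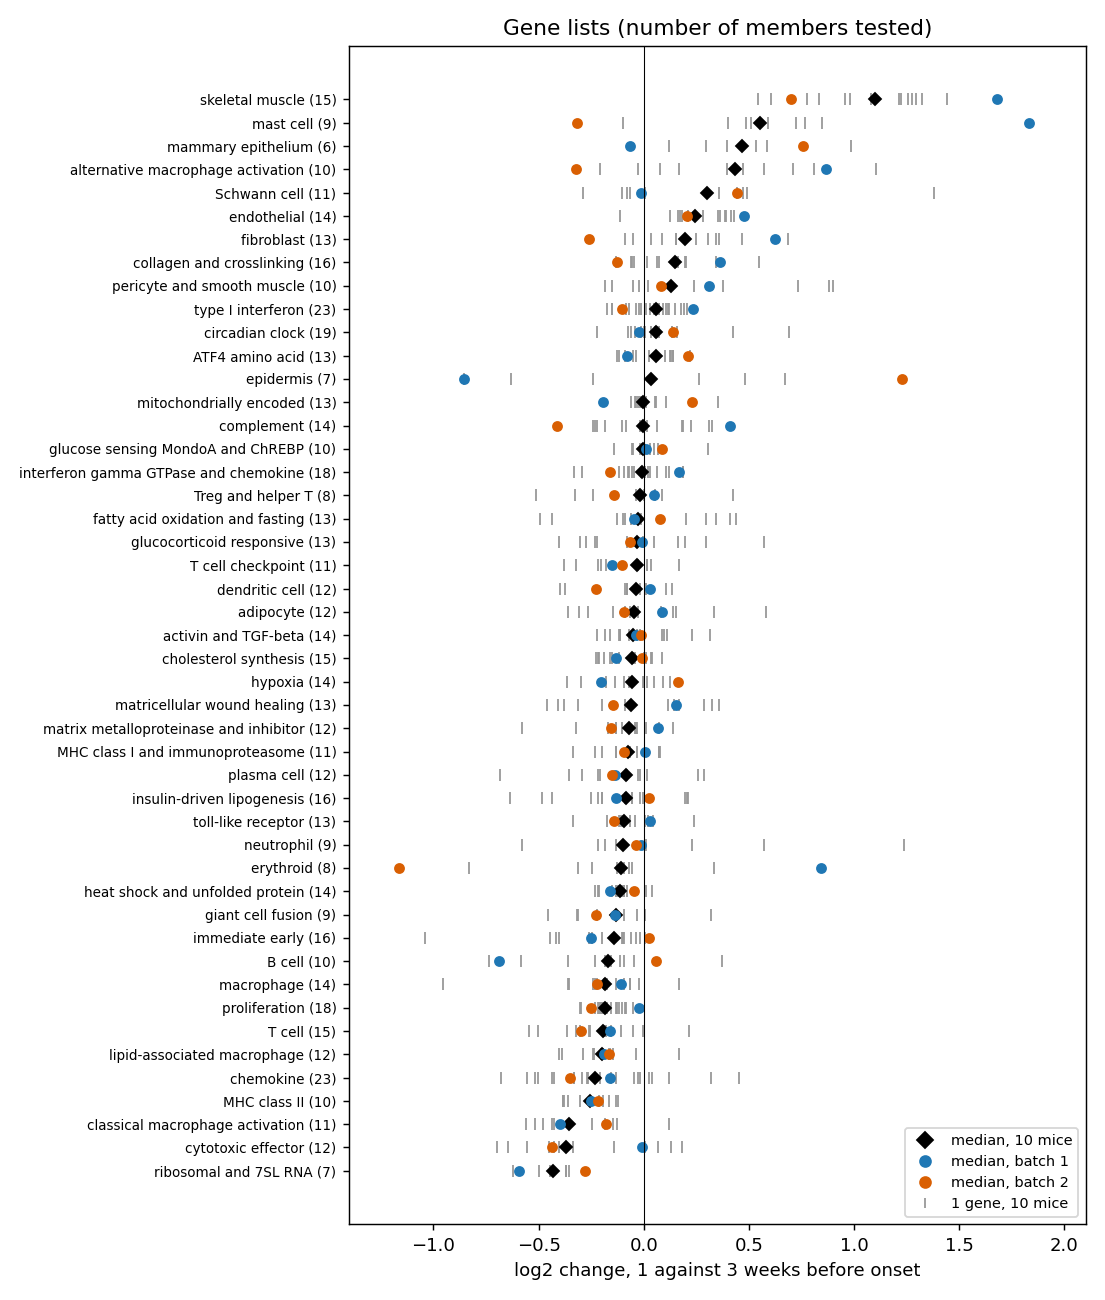
Log2 change from 3 to 1 weeks before onset (horizontal axis) of each gene list with at least 5 members tested, the number tested in brackets, with a grey tick for each gene, a black diamond for the median over all 10 mice and a blue or orange circle for the median in batch 1 or batch 2. Medians of the 10-mouse fit run from -0.43 for ribosomal and 7SL RNA to 1.10 for skeletal muscle, and the circles lie on opposite sides of 0 in lists such as mast cell, fibroblast, complement and epidermis.

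Several stromal lists lay on opposite sides of 0 in the batches. The median of 13 fibroblast genes was 0.63 in batch 1 and -0.26 in batch 2. *Pi16*, a marker of adventitial fibroblasts, was higher in all 5 mice of batch 1 (1.98) and in 1 mouse of batch 2 (-0.51), and the collagen *Col3a1* was higher in all 5 and in 2 (0.86 and -0.16). The mast cell proteases *Cpa3* and *Mcpt4* were higher in all 5 mice of batch 1, by 2.31 and 2.06, and had changes of -0.32 and -0.38 in batch 2. *Dlk1*, an imprinted gene of immature stroma, had changes of 2.25 and -0.85. Of the 51 lists, the median had the same sign in both batches in 24 and opposite signs in 27. A test of the difference of the change between batches gave 0 of 19009 genes (0% called, 973 at an unadjusted p under 0.05), so none of these splits passed a test. Endothelial genes were on the same side in both batches: 13 of 14 were higher (median 0.25, with 0.48 and 0.21 by batch), with the receptor *Tie1* at 0.35 ± 0.16 and the sialomucin *Emcn* at 0.41 ± 0.20, each higher in 8 mice. *Myh11*, a smooth muscle myosin, was at 0.90 ± 0.37 in 7 mice.

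Within batch 1 alone, 9 of 18247 genes passed the test (0.0493%), 5 higher and 4 lower, and within batch 2 alone 0 of 19580 (0%). The 5 were *Akr1c14* (2.50 ± 0.12, adjusted p = 0.00374), *Ptpn5* (2.99 ± 0.25, adjusted p = 0.0245), *Adgrd1*, an adhesion receptor (0.86 ± 0.06, adjusted p = 0.0111), *Adamts15*, a matrix protease (1.10 ± 0.10, adjusted p = 0.0262) and *Sdk1*, a cell adhesion protein (0.90 ± 0.08, adjusted p = 0.031). Each rose in all 5 mice of the batch. In batch 2 *Ptpn5* was higher in 4 mice and the others in 2 or 3. The 4 lower genes were the hair keratins *Krt27*, *Krt28*, *Krt71* and *Krt83*, and their levels rested on mouse 2. *Krt71* measured 1233 CPM in its library at 3 weeks, and 8.87 CPM or less in the other 9. Without mouse 2 these 4 did not pass the filter on low counts, and *Akr1c14* was the only gene past the threshold. Without mouse 3 the only one was *Krt28*, without mouse 4 there were 14, and the count ran from 1 to 14 as each of the 5 mice was left out. *Ptpn5* (adjusted p of 0.0509 to 0.207 in edgeR) and *Sdk1* (0.0544 to 0.289) passed in none of these fits. *Adamts15* passed only without mouse 5 (0.0397). These fits rest on 5 pairs.

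Skeletal muscle genes varied widely between INs. All 15 skeletal muscle genes were higher at 1 week, with a median log2 change of 1.10, and none had an unadjusted p under 0.05. Their summed level was 101.8 to 13510 CPM (median 1391) at 3 weeks and 271.1 to 35440 CPM (median 4849) at 1 week. It was higher in 8 mice, from 178.6 to 18490 CPM in mouse 3 and from 259.7 to 35440 CPM in mouse 4, and lower in mice 2 and 5, with 13510 and then 2572 CPM in mouse 5. The fast myosin *Myh4* had a change of 1.29 ± 0.86. Hair follicle genes lay on the other side. *Tchh*, trichohyalin of the inner root sheath, measured 2703 CPM in mouse 2 at 3 weeks and 0.701 CPM in the lowest library, and its change was -1.67 ± 0.72, lower in 7 mice. Only 3 of the 16 hair follicle genes passed the filter on low counts. The part of muscle or skin RNA in the other values was not tested.

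**Figure D4:**
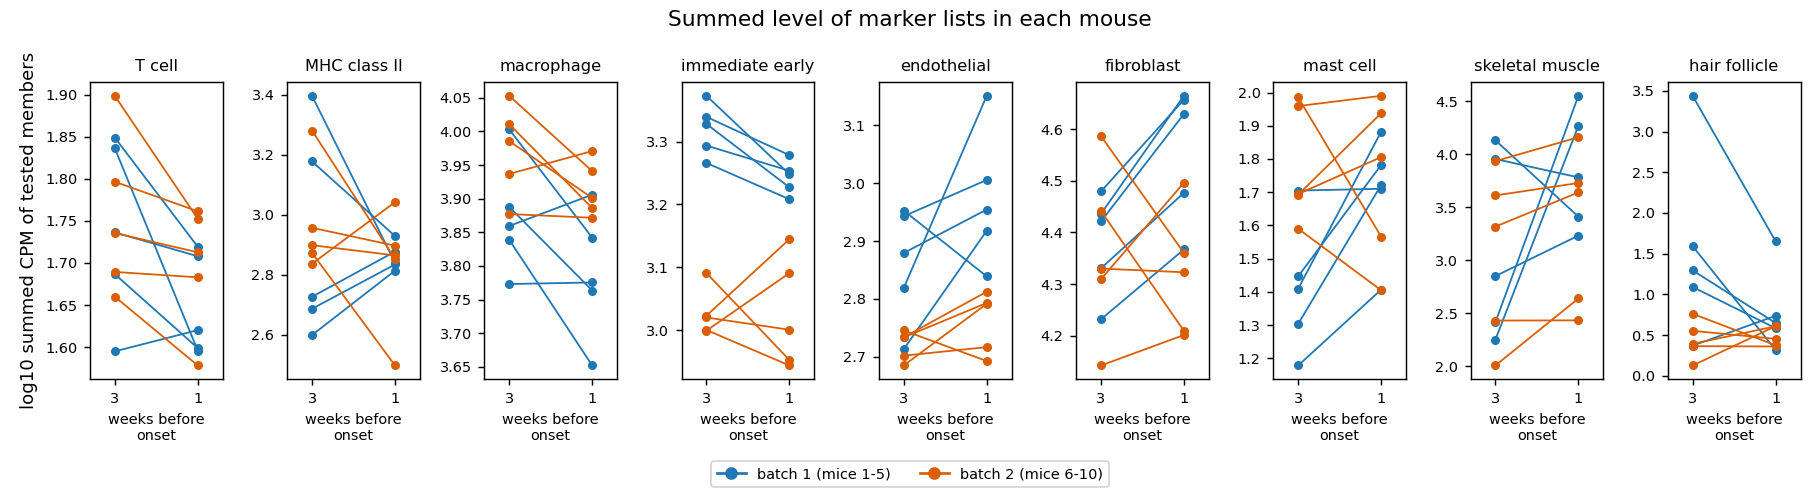
Summed level of the tested members of 9 marker lists in each mouse, as log10 CPM (vertical axis, 1 scale per panel) 3 and 1 weeks before onset, blue for batch 1 and orange for batch 2. T cell genes slope down in 9 mice, endothelial and skeletal muscle genes slope up in 8, and the hair follicle panel holds 1 library at 2754 CPM, that of mouse 2 at 3 weeks.

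Immediate early genes, which cells transcribe within minutes of a stimulus, had a fitted log2 change below 0 in 15 of 16, beside 52.2% of all genes. Of the 16, 5 were lower at an unadjusted p under 0.05, beside 4.46% of all genes. The median of the list was -0.14. *Fosb* measured 4.04 to 28.1 CPM (median 12.7) at 3 weeks and 3.15 to 12.2 CPM (median 4.61) at 1 week, a change of -1.04 ± 0.31. *Fos* (-0.44 ± 0.16) and *Dusp1* (-0.40 ± 0.12) went with it. *Fosb* and *Fos* were lower in all 5 mice of batch 1 and higher in 3 of 5 in batch 2, and the list's median was -0.25 in batch 1 and 0.03 in batch 2. All 18 proliferation genes had a fitted log2 change below 0 (median -0.19), beside 52.2% of all genes. The median of the list varied between mice with an SD of 0.573. *Pcna*, the replication clamp, was at -0.22 ± 0.11, lower in 7 mice. The median of the proliferation list was -0.02 in batch 1 and -0.25 in batch 2.

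Genes that respond to glucose or insulin overlapped between the 2 times. *Txnip*, an arrestin that sugar induces through MondoA and ChREBP, measured 209.9 to 747.3 CPM (median 484.1) at 3 weeks and 237.3 to 626.0 CPM (median 473.6) at 1 week, a change of -0.05 ± 0.13. It was higher in 5 mice and lower in 5. Its relative *Arrdc4* had one of 0.03 ± 0.07 (95% interval -0.13 to 0.19). The signs of both turned under some alternatives. From 1 week before onset to onset the change of *Arrdc4* was 0.44 (adjusted p = 0.0846 in edgeR), fitted on the 40 libraries that include the same 1-week libraries, and its medians were 41.3, 46.5, 48.6 and 66.3 CPM at 5, 3 and 1 weeks and at onset. Of 16 genes of insulin-driven lipogenesis, 13 were lower (median -0.09), with *Acly*, ATP citrate lyase, at -0.22 ± 0.11. *Lep*, leptin, was higher in 8 mice (0.58 ± 0.67), with a library at 0 at 3 weeks in mouse 1. Interferon-stimulated genes showed no common direction: of 23 type I genes 15 were higher and 8 lower (median 0.06), with *Ifit2* at 0.18 ± 0.11 and *Oas1a* at -0.17 ± 0.08.

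A further pair of lists held genes that the study had chosen on libraries of this series at other times, so they are not independent of these mice. Of 11 genes tested from its list for 7 against 5 weeks before onset, 5 were higher and 6 lower (median -0.01). *Chp1*, a calcineurin-like protein, had a change of -0.12 ± 0.05 and *Rbfa*, a ribosome assembly factor, one of -0.25 ± 0.10, each lower in 8 mice, and *Amd1*, which makes polyamine precursors, one of 0.14 ± 0.07. Of 8 genes tested from its list at 6 weeks of age, 6 were lower (median -0.24), led by *Marco*.

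The change was then set beside that of the preceding interval and of mice that stayed normoglycemic. From 5 to 3 weeks before onset 0 of 20257 genes passed (0%), and the difference between that change and the change from 3 to 1 weeks, which share the libraries at 3 weeks, gave 0 as well (0%, 610 at an unadjusted p under 0.05, smallest adjusted p = 0.999). *Evl*, at -0.30 from 3 to 1 weeks, had a log2 change of 0.05 from 5 to 3 weeks and of 0.10 from 1 week to onset, and *Mertk* had -0.05 and 0.14. In batch 1, between 14 and 18 weeks of age, 0 of 17853 genes passed in 4 nonprogressors (0%, 582 at an unadjusted p under 0.05) and 0 of 18009 in 4 NOR mice, a related strain that resists diabetes (0%, 892 at an unadjusted p under 0.05). *Evl* had log2 changes of 0.27 in the nonprogressors and of -0.08 in the NOR mice without mouse 5, in whose 18-week library 1 rRNA gene took 85.7% of the counts. *Nr1h3* had 0.23 and -0.75, *Mertk* 0.14 and -0.44, *Rgs10* 0.11 and -0.51, *S100a1* 0.15 and -0.83 and *Pparg* 0.08 and -1.29. Of other lower genes, *Pitpnm1* had 0.16 and 0.03 and *AB124611* 0.39 and 0.22. *Greb1* had -0.13 and 0.03. Among other genes higher at 1 week in the progressors, *Ptpn5* had -0.52 and 2.05, *Pgr* -1.80 and 1.75 and *Akr1c14* -0.16 and -0.57. These values rest on 4 nonprogressors and 3 NOR mice. The difference between these changes and that of the progressors was not tested, since onset and age are not aligned.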

How the data were processed

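Total RNA of INs was sequenced after ribosomal depletion. The authors deposited a table per batch of expected count values per gene, estimated with RSEM. The submitters' processing notes name cutadapt, FastQC, STAR, RSEM, MultiQC and GRCm38, while versions and the strand setting are not given in the sources used here. Reads of overlapping genes can therefore be shared. The deposited values were already whole, and no count column lacked a sample (0 left out). Symbols came from the deposited tables and coordinates from GENCODE M21.

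Genes were kept by edgeR 4.0.16 filterByExpr (minimum count 10, in R 4.3.3), scaled by TMM, and tested with the quasi-likelihood test on 20 libraries with mouse as a block, adjusted by Benjamini and Hochberg over all genes tested with a threshold of 0.05. Fits were tested on simulated counts, in which the planted changes were larger than most changes named here. That test does not bear on the smaller changes, and its outcome is not given here. SE is the size of the log2 change divided by the root of F. Log2 CPM used a prior count of 2. Pairs are by animal and rest on the mouse numbers in the labels. Same-mouse deviations from the batch and time means correlated by -0.399 to 0.431, and 5 of 10 pairs exceeded 0.1. The mean was 0.0835 for the same mouse and -0.0198 for other mice of the batch. Only 3 of the 10 mice had their own number as the best match in their batch.

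Named genes were, on either side, the 12 of lowest p (mean of at least 1 CPM, no Gm, Rik or pseudogene), the 3 members of each list of lowest p, defining members where a level is described, and genes the text calls chosen after their values were seen. Some genes that the rule names are not reported here. Members and lists were chosen with earlier results of these data known. CT010467.1, annotated as rRNA, was added to the ribosomal and 7SL RNA list after the tables were seen. DESeq2 1.42.0, limma 3.58.1, other scalings and filters, single batches and left-out mice were the alternatives.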

Additional observations from a re-analysis of the deposited data

Results flagged for a closer look

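The check covered 206 groups of 10 libraries. Each held the log2 CPM of a named gene, or the log2 of a list's summed level, at 1 of the 2 times. In 19 groups (9.22%) the gap from the highest or lowest library to the next exceeded Dixon's critical value of 0.466. Gap and range were both taken on the log2 scale, and the gap is given as a share of the group's range. Chance flags about 1 in 20 groups that are independent and normally distributed. The groups here hold genes picked by p or by value, and they overlap. In mouse 2 at 3 weeks, *Tchh* gave 2703 of the 2754 CPM of the hair follicle list. The share of 9.22% therefore cannot be read as an excess. The most came from mouse 8 at 3 weeks, which was highest for *Greb1* (0.648), *Ptpn5* (0.664), *Akr1c14* (0.561) and *Ngfr* (0.538). Mouse 2 was highest for *Tchh* at 3 weeks (0.53) and at 1 week (0.542), for the hair follicle list at 3 weeks (0.558) and at 1 week (0.686), for the epidermis list at 3 weeks (0.54) and for *Pla2g2e* at 1 week (0.511).

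Among immune genes, mouse 6 was highest for *H2-DMb2* (0.507) and *Ccl22* (0.494) at 1 week and for *Ly96* at 3 weeks (0.569). Mouse 9 was lowest for the MHC class II list at 1 week (0.581), with a summed level of 314.7 CPM. Mouse 10 was highest for *Csf3r* at 3 weeks (0.558) and lowest for *Ptpn5* (0.548) and *Ly96* (0.498) at 1 week. Mouse 1 was highest for *Fabp5* (0.521) and lowest for *Lep* (0.478) at 3 weeks. No named gene moved one way in every mouse of 1 batch and the opposite way in every mouse of the other.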

How the results depend on the processing

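The count of 0 genes between 3 and 1 weeks before onset held under DESeq2 size factors, library totals, the stricter filter, limma-voom, removal of ribosomal and 7SL RNA genes, the 40-library fit, batch 2 alone, each mouse left out and mice 2 and 4 left out together, an alternative chosen after seeing the data. It was 28 without a filter on low counts, 9 in batch 1 alone and 2 with DESeq2. Of the 28, 27 were lower, 19 were keratins or keratin-associated proteins, and 0 had been tested under the filter. Without the replicate block, that is, without pairing by mouse, 0 genes passed (1519 at an unadjusted p under 0.05), and 0 passed in the other comparisons fitted both ways. The count at an unadjusted p under 0.05 ran from 559 to 1945 as mice were left out. Leaving out 1 mouse gave 0 to 1 genes for the difference between batches, 0 to 1 for the difference from the change to onset, 0 to 0 for that from the preceding change, and 1 to 14 within batch 1. In the difference between batches, the 1 gene was 1810049J17Rik, without mouse 9.

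The share of genes at an unadjusted p under 0.05 that were lower was 65.4%, and 32.4% with library totals, under which the median of all genes was 0.04, 55.4% without ribosomal and 7SL RNA, 42.6% in batch 1 alone, 40.3% in batch 2 alone and 46.3% in the 40-library fit. The medians of the macrophage, lipid-associated macrophage, T cell, MHC class II, endothelial and skeletal muscle lists kept their sign under every alternative that was run on them. Of the 51 list medians, 11 turned with library totals and 8 with the stricter filter, among them T cell checkpoint, Treg and helper T, complement and glucose sensing under both.

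Of the named genes, 14 values turned. In batch 2 alone these were *Cd163* (-0.41), *Col3a1* (-0.16), *Pi16* (-0.51), *Cpa3* (-0.32), *Mcpt4* (-0.38), *Dlk1* (-0.85), *Akr1c14* (-0.13) and *Esr1* (-0.0891). In batch 1 alone *Cd22* was at 0.00713 and *Txnip* at 0.0401. *Txnip* was at 0.00169 with library totals and 0.0134 and 0.0198 without mouse 1 or 9, and ran from -0.151 to 0.0198 as each mouse was left out. *Arrdc4* was at -0.0249 without mouse 2 and ran up to 0.0787. The cause was not tested. Counting depth and 10 pairs limit the precision, most of all for genes under 1 CPM.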
